A study of Mus musculus with 12 samples.

Results

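The 10 genes described here moved in the same direction with loss of the histone demethylase LSD1 in both kinds of mouse B cell that were studied. They are Ddx23, Slc66a2, Rapgef3, Csrp1, Ptprv, St8sia6, Ide, Srp54a, Srp54b and Fam177a, 10 of the 9842 genes in the expression table. They had been selected on their adjusted p and direction in both LSD1 comparisons in an earlier analysis of the same table, so their knockout and wild-type levels are given as a description and without a test. The 12 libraries came from splenic B cells of female C57BL/6J mice and fell into 4 groups of 3. TrB_KO and TrB_WT were transitional B cells, the newly arrived B cells of the spleen, from LSD1 knockout and wild-type mice, sorted without stimulation as B220+ CD93+ cells after cells with T cell or myeloid surface markers had been removed. eMZB_KO and eMZB_WT were transitional B cells from the same kinds of mice grown for 3 days with BAFF, a B cell survival factor, and DL1, a ligand of Notch. They were then sorted as B220+ CD21+ CD1d+ cells, the surface profile of marginal zone B cells, with the same exclusions. Each library held the RNA of 2000 cells. The labels give neither the allele, the promoter behind the deletion, the age of the mice nor whether a group's libraries stem from different animals. P-values therefore measure only how far these libraries spread, and that spread may be technical.

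LSD1, encoded by Kdm1a, removes methyl groups from histone H3 and usually acts within the CoREST complex beside histone deacetylases. It is brought to promoters and enhancers by factors such as the zinc finger repressor GFI1, and its loss in blood cells is known chiefly for raising genes that the complex holds down. The 10 genes share no single pathway. Ddx23 encodes an RNA helicase of the U5 small nuclear ribonucleoprotein, part of the spliceosome. Srp54a and Srp54b encode the GTPase subunit of the signal recognition particle, which takes proteins with a signal peptide to the endoplasmic reticulum. Rapgef3 encodes EPAC1, a cAMP-activated exchange factor for Rap GTPases, and Ptprv a receptor-type tyrosine phosphatase known from bone and as a p53 target. Ide encodes the insulin-degrading enzyme, a zinc metalloprotease, and St8sia6 a sialyltransferase that extends sialic acid on glycans. Csrp1 encodes a LIM domain protein of the actin cytoskeleton, and Slc66a2 a membrane protein of the PQ-loop family.

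Levels below are FPKM, reads per kilobase of gene and per M reads of the library, after each library was divided by 1 scaling factor. Listed genes held 1.96 to 8.78 M reads per library, and single members 16 to 2089 reads. TrB_KO replicate 3 stood apart, with 61.6% of its reads in listed genes, against 16.7% to 20.9% in the other 5 transitional libraries. Leaving it out moved the TrB log2 differences of the 10 genes by -0.13 to 0.07. Kdm1a (chromosome 4, 136550533 to 136602787) had 3.35, 2.56 and 2.99 scaled FPKM in TrB_KO, against 8.54, 7.93 and 3.47 in TrB_WT replicates 1 to 3. In eMZB_KO it had 2.65, 2.53 and 2.66, against 7.53, 8.63 and 4.68 in eMZB_WT. The libraries labelled TrB_WT replicate 3 and eMZB_WT replicate 3 thus lay below the other wild-type libraries in Kdm1a, and every wild-type mean below draws on them. The log2 change of Kdm1a was -0.87 in TrB (SE 0.26, limma adjusted p = 0.249), and in eMZB it was -1.10 (SE 0.26, adjusted p = 0.148). Without those 2 libraries it was -1.22 in TrB and -1.33 in eMZB. They were left out because their Kdm1a was low, so a larger difference follows from that choice and nothing is read from it. The deleted part of Kdm1a is not given, so the reads left in the knockouts cannot be placed inside or outside it. Kdm1a also overlaps Luzp1 over 4193 bases on the other strand, and reads of these genes there cannot be told apart.

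The sequences of 3 members limit what their values can mean. Srp54a, Fam177a and Srp54b lie side by side on chromosome 12, followed by further copies, Srp54c and Fam177a2 (1700047I17Rik2 in GENCODE), which the table did not list. In the GENCODE M21 transcripts of mm10, the coding sequences of Srp54a and Srp54b, 1515 bases each, differed at 0 positions, and each differed from Srp54c at 6. The window below, coding bases 876 to 965 on the plus strand, holds 3 of those 6 positions, shown in capitals, and is printed because it shows how little separates the copies.
Srp54a: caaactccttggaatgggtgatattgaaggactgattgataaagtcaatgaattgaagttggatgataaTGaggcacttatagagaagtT
Srp54b: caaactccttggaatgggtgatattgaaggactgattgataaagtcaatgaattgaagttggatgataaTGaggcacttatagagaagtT
Srp54c: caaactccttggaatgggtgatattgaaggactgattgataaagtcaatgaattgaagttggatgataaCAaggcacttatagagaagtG
The first pair of lines is letter for letter the same. Of all words of 50 bases in the transcripts of Srp54a, 29.5% occurred in no other gene, and of those of Srp54b 10.7%. The coding sequence of Fam177a, 624 bases, was identical to that of 1700047I17Rik2, and only 1.52% of the 50-base words of Fam177a were its own. Slc66a2 had 99.0% of its words to itself and the other 6 members 100%. The gene lengths recovered from the FPKM values were 7389 bases for Srp54b and 7682 for Fam177a, against longest transcripts of 3646 and 3922 bases, so the authors' unit for these genes was longer than the GENCODE gene. Values of Srp54a, Srp54b and Fam177a are therefore uncertain as values of single genes, and how reads that match several copies were counted is not given.

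Promoter windows were found in the RefSeq table for 6 of the 10 members, 7 windows in all. The 250 bases before the start are shown for Csrp1, which was higher in the knockouts, and for Ide, the member that was lower. The Ide window follows the RefSeq start. In GENCODE M21 it lies inside the Ide gene, and no GENCODE transcript holds the 50 bases after it. Capitals mark AATC on either strand, the core of the sequence that GFI1 binds. The Csrp1 window is chr1:135719813-135720062 on the plus strand and the Ide window chr19:37334545-37334794 on the minus strand, both in GRCm38.p6.
Csrp1: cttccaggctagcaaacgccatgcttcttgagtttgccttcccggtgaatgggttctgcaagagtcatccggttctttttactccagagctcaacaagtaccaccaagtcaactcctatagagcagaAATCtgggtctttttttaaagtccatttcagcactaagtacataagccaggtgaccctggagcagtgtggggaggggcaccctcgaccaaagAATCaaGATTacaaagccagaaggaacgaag
Ide: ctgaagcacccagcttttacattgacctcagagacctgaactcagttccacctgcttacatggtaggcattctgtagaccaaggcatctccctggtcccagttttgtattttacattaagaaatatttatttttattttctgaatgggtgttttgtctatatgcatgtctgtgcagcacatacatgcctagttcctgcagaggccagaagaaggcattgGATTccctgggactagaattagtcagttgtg
AATC stood at 3 places in this Csrp1 window, at 1 in another Csrp1 window (from 135728917) and at 1 in the Ide window. It was present in 5 of the 7 windows of members and in 69% of all 32851 windows of the same length, a share from which nothing is read about the members. The longer form AAATCA, which contains AATC, was in 0 of the 7 and in 12.4% of all. TGACGT, the core bound by the cAMP-responsive CREB and ATF factors, was in the windows of Rapgef3 and Srp54a and in 6.47% of all windows. The ETS core GGAAGT was in the same 2 windows and in 19.7% of all, and the E-box CACGTG in 0 of the 7 and in 6.02% of all. Both strands were searched, from 250 bases before to 50 bases after the start. A match describes letters in a window and is not a binding site.

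All 10 members had adjusted p under 0.05 in limma in TrB_KO against TrB_WT, where 0.498% of the 9842 genes did, and in eMZB_KO against eMZB_WT, where 0.406% did. Because these comparisons chose the genes, nothing is read from those counts. In both cell types the 3 knockout and 3 wild-type libraries did not overlap for any member, a separation seen for 10.5% of all genes in TrB and 18.4% in eMZB. Of the 10 genes 9 were higher without LSD1, where 0.386% of all genes were called higher in TrB and 0.335% in eMZB. Ide was lower, as were 0.112% of all genes in TrB and 0.0711% in eMZB by the same call. The median absolute log2 difference was 0.98 over the members and 0.13 over all genes in TrB, and 0.74 and 0.10 in eMZB. In such bulk RNA, fewer cells that express a gene and less RNA per cell cannot be told apart.

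**Figure D1:**
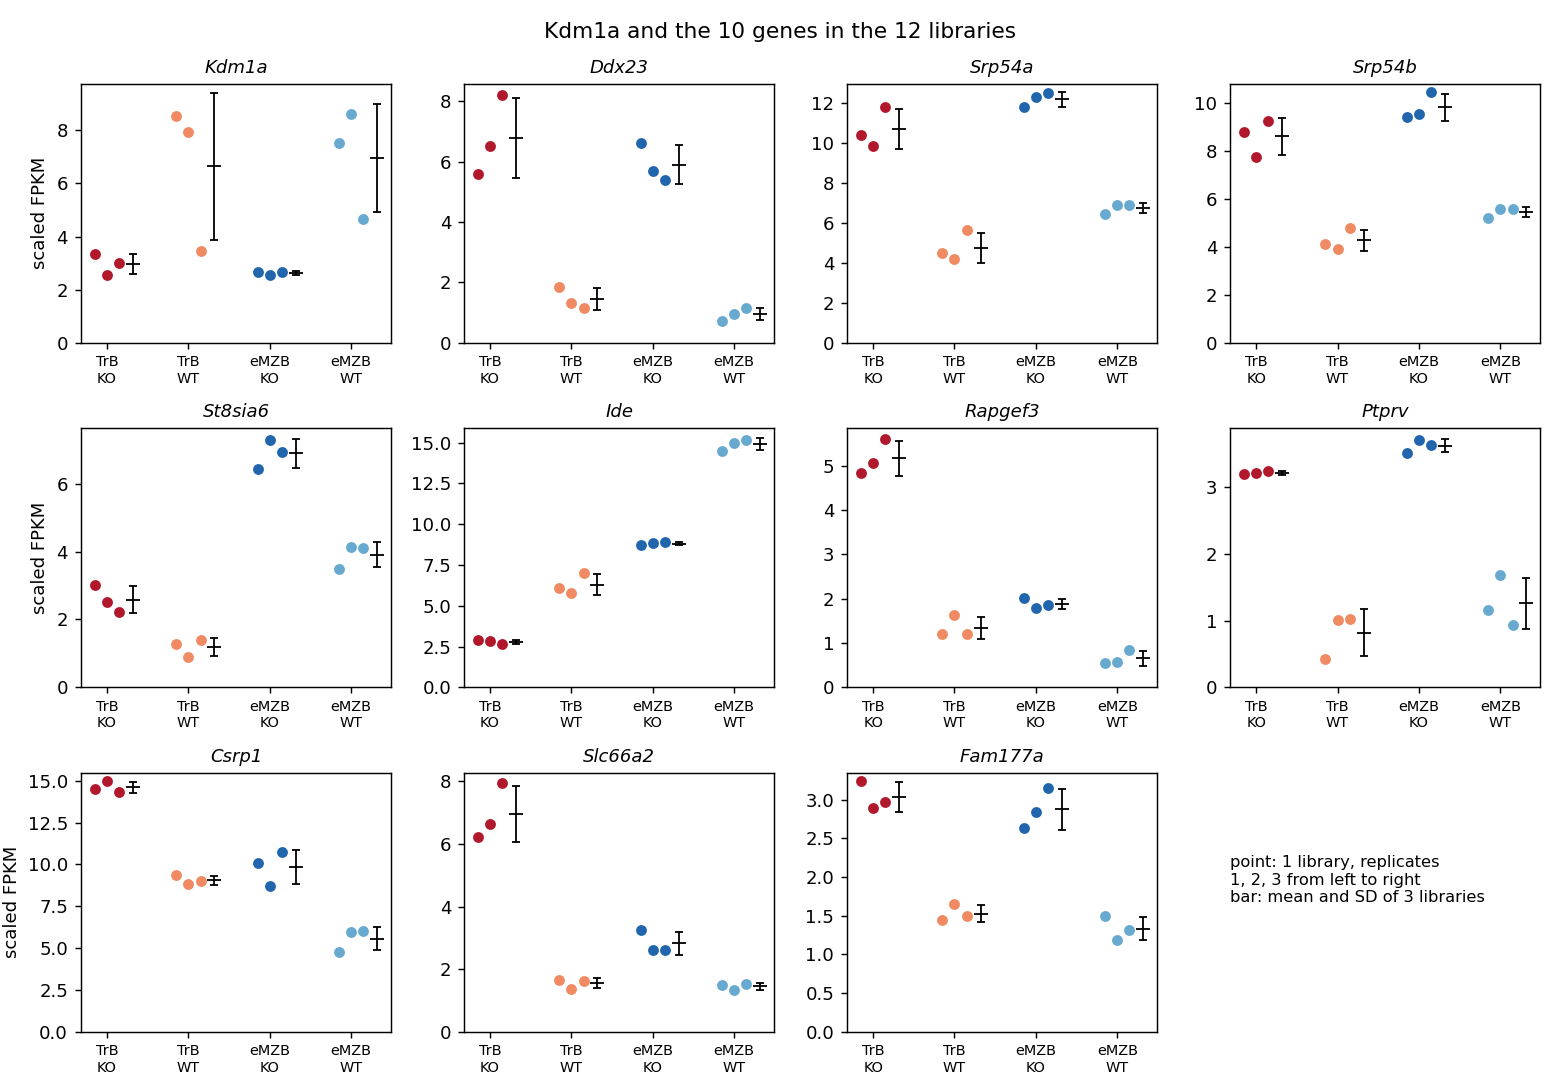
Scaled FPKM (linear vertical axes from 0) of Kdm1a and the 10 genes in each of 12 libraries, by group, with the mean and SD of 3 libraries at the right of each group. For each of the 10 genes the knockout points lie wholly above (or, for Ide, wholly below) the wild-type points of the same cell type, while TrB_WT replicate 3 of Kdm1a, at 3.47, lies beside the TrB_KO points.

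Ddx23 (Entrez 74351, chromosome 15, 98645379 to 98662928, minus strand) had the largest difference of the 10 in eMZB. In TrB its log2 difference was close to that of Slc66a2, at 1.67 against 1.64. Without TrB_KO replicate 3 those were 1.541 and 1.547. In TrB_KO, Ddx23 had 5.59, 6.53 and 8.21 scaled FPKM, against 1.85, 1.31 and 1.16 in TrB_WT. Ddx23 had 6.62, 5.70 and 5.38 in eMZB_KO, against 0.736, 0.957 and 1.15 in eMZB_WT. Every knockout library thus lay far above every wild-type library of its cell type. The ratio of means was 4.71 in TrB and 6.22 in eMZB, and the log2 differences were 1.67 and 1.83 (SE 0.15 each). The wild-type values rest on 29 to 120 reads per library and the knockout values on 173 to 1024. The helicase acts in the U4/U6.U5 tri-snRNP, and the 15 listed partner genes of that particle did not share its course: 0 of 15 passed in either cell type, with medians of 0.00 in TrB and 0.02 in eMZB. Prpf8, the large U5 scaffold protein, had 21.7 ± 15.7 in TrB_KO and 13.1 ± 2.56 in TrB_WT (SD, n = 3 each), a spread wider than the difference.

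Srp54a (Entrez 24067, chromosome 12, 55080476 to 55115367, plus strand) had 10.4, 9.88 and 11.8 scaled FPKM in TrB_KO, against 4.48, 4.20 and 5.63 in TrB_WT. Srp54a had 11.8, 12.3 and 12.5 in eMZB_KO, against 6.47, 6.92 and 6.89 in eMZB_WT. Its copy Srp54b (Entrez 665155, chromosome 12, 55155104 to 55189213, plus strand) had 8.80, 7.75 and 9.25 in TrB_KO, against 4.11, 3.92 and 4.77 in TrB_WT. Both genes were close to 2-fold higher in TrB_KO, with ratios of means of 2.25 and 2.02. Srp54b had 9.42, 9.52 and 10.5 in eMZB_KO, against 5.19, 5.58 and 5.59 in eMZB_WT, a ratio of 1.80, as for Srp54a. The log2 differences of Srp54a were 1.03 in TrB and 0.77 in eMZB (SE 0.10 each) and those of Srp54b 0.87 and 0.74 (SE 0.10 each). With identical coding sequences, these 2 values are not independent measurements. Of the 7 other listed genes of the signal recognition particle and its receptor, 0 passed in either cell type. Srp19, which prepares the particle's RNA for Srp54, had 16.5 ± 1.30 in TrB_KO and 12.9 ± 1.31 in TrB_WT, and 17.3 ± 0.286 in eMZB_KO and 17.4 ± 1.51 in eMZB_WT.

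Rapgef3 (Entrez 223864, chromosome 15, 97744770 to 97768419, minus strand) had 4.85, 5.06 and 5.60 scaled FPKM in TrB_KO, against 1.20, 1.64 and 1.19 in TrB_WT. Rapgef3 had 2.01, 1.79 and 1.86 in eMZB_KO, against 0.555, 0.562 and 0.838 in eMZB_WT. The eMZB_KO libraries lay just above the highest TrB_WT library and well below all TrB_KO libraries. The log2 difference was 1.40 in TrB and 0.81 in eMZB (SE 0.12 each), and the ratio of means 3.84 and 2.89. The libraries do not mark strand, and Rapgef3 overlaps the lncRNA gene Rapgef3os2 over 6842 bases and Gm33531 over 1700, so reads of these genes cannot be separated. Of 23 listed genes of the cAMP pathway, 0 passed in either cell type, with medians of -0.00 in TrB and 0.00 in eMZB. Prkar1a, a regulatory subunit of protein kinase A, had 30.3 ± 0.920 in TrB_KO and 25.6 ± 1.78 in TrB_WT.

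Ptprv (Entrez 13924, chromosome 1, 135108498 to 135132575, minus strand), which RefSeq classes as a transcribed pseudogene, had 3.19, 3.21 and 3.24 scaled FPKM in TrB_KO, against 0.420, 1.01 and 1.03 in TrB_WT. Ptprv had 3.51, 3.71 and 3.63 in eMZB_KO, against 1.15, 1.68 and 0.934 in eMZB_WT. The 6 knockout libraries spanned a narrow range in both cell types, and the wild-type libraries a wide one on 21 to 145 reads. The log2 difference was 1.23 in TrB and 1.05 in eMZB (SE 0.16 each). Ptprv overlaps Ptpn7, a tyrosine phosphatase of lymphocytes, over 738 bases. Ptpn7 itself differed by 0.29 in TrB (adjusted p = 0.415) and 0.43 in eMZB (adjusted p = 0.306), and so passed in neither. Of 5 listed receptor-type phosphatases and of 11 listed p53 targets, 0 passed in either cell type, nor did Ptprcap, a CD45-associated protein in the same list as the phosphatases. Sesn2, a stress-induced p53 target, had 0.214 ± 0.193 in TrB_KO and 0.695 ± 0.122 in TrB_WT.

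Ide (Entrez 15925, chromosome 19, 37268743 to 37334544, minus strand) was the member that went down. It had 2.89, 2.85 and 2.64 scaled FPKM in TrB_KO, against 6.11, 5.76 and 6.999 in TrB_WT. Ide had 8.70, 8.86 and 8.89 in eMZB_KO, against 14.5, 15.01 and 15.2 in eMZB_WT. The eMZB_KO libraries were above all TrB_WT libraries, so the difference between cell types was larger than that between genotypes. The log2 difference was -0.94 in TrB and -0.69 in eMZB (SE 0.09 each). As deposited, without scaling, the median gene was higher by 0.52 in TrB_KO than in TrB_WT. There the TrB difference of Ide was -0.38 and its libraries overlapped. Ide then had 1.83, 2.19 and 5.66 FPKM in TrB_KO and 3.75, 4.24 and 4.34 in TrB_WT. Of its 6 listed relatives of the M16 metalloprotease family, 0 passed in either cell type, and Nrd1 (nardilysin) had 10.1 ± 1.45 in TrB_KO and 9.47 ± 0.815 in TrB_WT.

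St8sia6 (Entrez 241230, chromosome 2, 13651018 to 13794734, minus strand) had 3.01, 2.52 and 2.23 scaled FPKM in TrB_KO, against 1.27, 0.897 and 1.40 in TrB_WT. St8sia6 had 6.45, 7.29 and 6.95 in eMZB_KO, against 3.49, 4.14 and 4.11 in eMZB_WT. Its wild-type level in eMZB was above its knockout level in TrB. The log2 difference was 0.71 in TrB and 0.69 in eMZB (SE 0.12 each), on a scale that understates differences at low levels. The ratio of means was larger in TrB, at 2.17 against 1.76 in eMZB. With a pseudocount of 0.1 the log2 differences were 1.068 in TrB and 0.805 in eMZB. Of 19 other listed sialic acid genes, 0 passed in either cell type. St8sia4, a polysialyltransferase, had 8.75 ± 2.57 in TrB_KO and 5.72 ± 1.10 in TrB_WT, and 5.70 ± 0.304 in eMZB_KO and 7.05 ± 0.604 in eMZB_WT.

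Csrp1 (Entrez 13007, chromosome 1, 135720063 to 135752229, plus strand) had 14.5, 14.97 and 14.3 scaled FPKM in TrB_KO, against 9.34, 8.80 and 9.01 in TrB_WT. Csrp1 had 10.1, 8.74 and 10.7 in eMZB_KO, against 4.77, 5.94 and 6.00 in eMZB_WT. It was the most abundant member in TrB_KO, and its difference between genotypes was among the smallest, at 0.64 in TrB and 0.73 in eMZB (SE 0.10 each). Of 19 relatives with LIM domains 11 were listed, and 0 passed in either cell type. Crip1, a small LIM protein abundant in lymphocytes, had 160 ± 28.7 in TrB_KO and 184 ± 19.6 in TrB_WT. Csrp1 is abundant in smooth muscle. Of 10 stromal and smooth muscle markers 3 were listed, and their summed level was 32.7 to 37.5 in TrB_KO against 30.4 to 34.9 in TrB_WT, and 15.7 to 25.1 in eMZB_KO against 14.6 to 39.2 in eMZB_WT. Their part in the Csrp1 values was not tested.

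Slc66a2 (Entrez 66943, chromosome 18, 80255241 to 80292724, plus strand) differed most between the cell types in its response. It had 6.23, 6.65 and 7.95 scaled FPKM in TrB_KO, against 1.66, 1.37 and 1.62 in TrB_WT. Slc66a2 had 3.24, 2.60 and 2.62 in eMZB_KO, against 1.51, 1.33 and 1.53 in eMZB_WT. The wild-type libraries of both cell types thus lay in 1 narrow range and the knockout libraries in 2 separate ones. The log2 difference was 1.64 in TrB and 0.64 in eMZB (SE 0.12 each), and the eMZB difference minus the TrB difference was -1.0 (SE 0.17). For Rapgef3 that quantity was -0.59 (SE 0.17), and for the other 8 members it ran from -0.26 (Srp54a, SE 0.15) to 0.24 (Ide, SE 0.12). The place of Rapgef3 depended on the pseudocount. At 0.1 it had 1.878 in TrB and 1.421 in eMZB, much like Ptprv with 1.935 and 1.492. Ddx23 then had 2.168 and 2.531, the larger in eMZB. These are descriptions, since both parts chose the genes. Of 6 other listed PQ-loop and related transporters, 0 passed in either cell type.

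Fam177a (Entrez 73385, chromosome 12, 55124435 to 55142104, plus strand) had 3.25, 2.89 and 2.97 scaled FPKM in TrB_KO, against 1.44, 1.65 and 1.498 in TrB_WT. Fam177a had 2.63, 2.84 and 3.15 in eMZB_KO, against 1.499, 1.19 and 1.31 in eMZB_WT. It stood at about the same 2 levels, one per genotype, in both cell types. The log2 difference was 0.67 in TrB and 0.73 in eMZB (SE 0.11 each). Its reads match 1700047I17Rik2 as well, as described above.

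**Figure D2:**
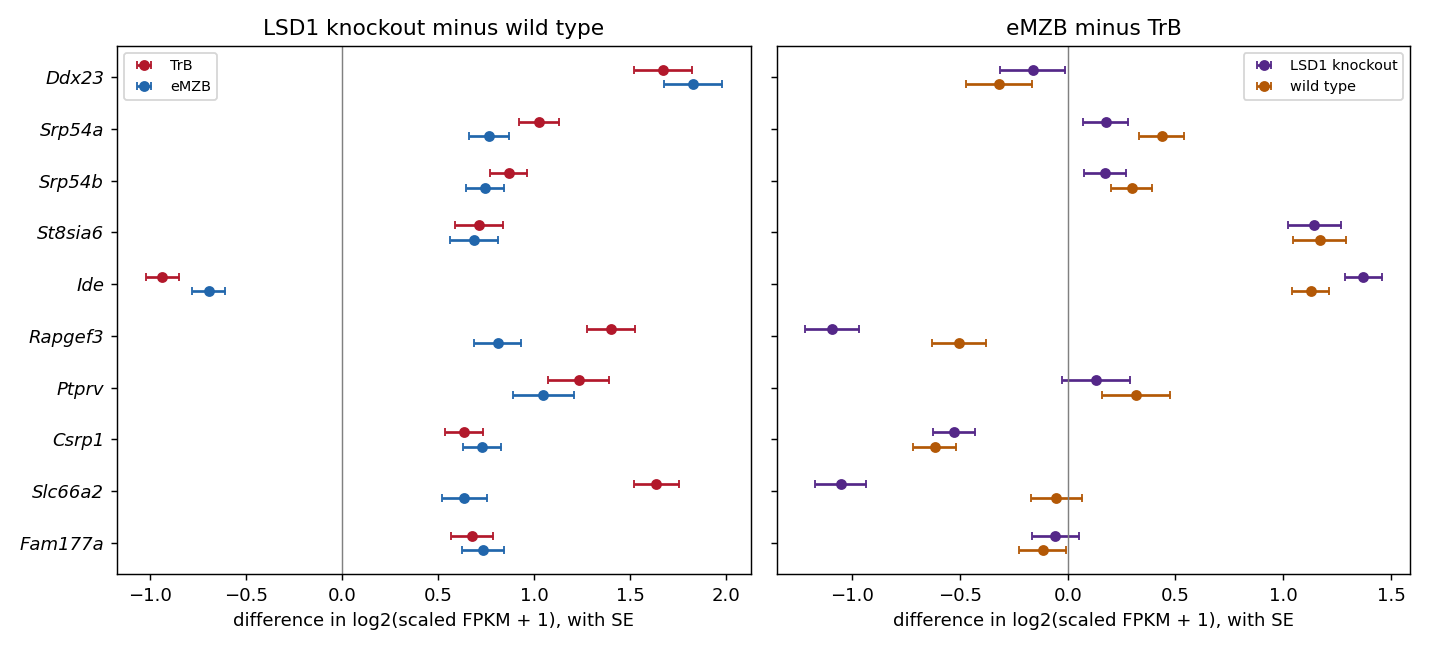
Differences in log2(scaled FPKM + 1) with the SE of the fit, for LSD1 knockout minus wild type in TrB and eMZB (left) and for eMZB minus TrB in knockout and wild-type cells (right). The left panel shows 9 genes to the right of 0 and Ide to the left in both cell types; the right panel shows Ide and St8sia6 high, and Slc66a2 apart between genotypes, at -1.05 in knockout and -0.05 in wild type.

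The comparison of cultured with transitional cells did not enter the choice of genes directly, and was tested with limma over all 9842 genes. The fit shares each gene's estimate of spread across the groups, LSD1 comparisons included. Selection on a small adjusted p favours genes whose estimated spread is low, so the p-values here may be too small. The counts of members below are therefore descriptions, and Srp54a and Srp54b are not independent in them. Of the 10 members, 6 passed in eMZB_WT against TrB_WT, where 27.4% of all genes did. Of these, 4 were higher (14.6% of all genes were called higher) and 2 lower (12.7%), and for 7 members the libraries did not overlap, as for 45.1% of all genes. Ide was 2.37-fold higher in eMZB_WT (log2 1.13, SE 0.09, adjusted p = 1.55e-06) and St8sia6 3.28-fold (log2 1.17, SE 0.12, adjusted p = 2.28e-05). Srp54a was also higher, at 0.44 (SE 0.10, adjusted p = 0.00808), and Srp54b at 0.30 (SE 0.10, adjusted p = 0.0383). Csrp1 was lower in eMZB_WT, at -0.62 (SE 0.10, adjusted p = 0.000642), and Rapgef3 at -0.50 (SE 0.12, adjusted p = 0.00944). The other 4 did not pass, and the 95% interval of the difference was -0.65 to 0.01 for Ddx23, -0.03 to 0.66 for Ptprv, -0.35 to 0.12 for Fam177a and -0.31 to 0.20 for Slc66a2.

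Of the 10 members, 5 passed in eMZB_KO against TrB_KO, where again 27.4% of all genes did. Of these, 2 were higher (14.2% of all genes) and 3 lower (13.2%), and for 7 members the libraries did not overlap, as for 43.9% of all genes. Ide was 3.15-fold higher in eMZB_KO (log2 1.37, SE 0.09, adjusted p = 4.97e-07) and St8sia6 2.67-fold (log2 1.14, SE 0.12, adjusted p = 2.92e-05). Lower in eMZB_KO were 3 of 10: Rapgef3 at -1.09 (SE 0.12, adjusted p = 4.1e-05), Slc66a2 at -1.05 (SE 0.12, adjusted p = 3.78e-05) and Csrp1 at -0.53 (SE 0.10, adjusted p = 0.00191). Srp54a, Srp54b, Ddx23, Ptprv and Fam177a did not pass, with adjusted p of 0.244, 0.219, 0.473, 0.589 and 0.735. Ide and St8sia6 were thus higher after culture in both genotypes, while LSD1 loss moved them in opposite directions. Rapgef3 and Csrp1 were lower after culture in both genotypes and higher without LSD1.

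The calls of Ide and St8sia6 between cell types held in every alternative fit. Those of Csrp1 and Rapgef3 in both genotypes, Srp54a in wild type and Slc66a2 in knockouts held in all but that on the deposited scale. On the deposited scale, where the median gene moved by 0.67 between eMZB_WT and TrB_WT and by 0.23 between eMZB_KO and TrB_KO, Ide and St8sia6 alone passed in both genotypes. There Csrp1 had 0.14 in wild type, the opposite sign, and Rapgef3 -0.08. Srp54b passed in 10 of 20 alternative fits in wild type, with adjusted p of 0.0172 to 0.111. These comparisons share their libraries and their estimates of spread with the LSD1 comparisons.

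Of the 10 members, 7 lay in 3 short stretches of the genome. Csrp1 and Ptprv were 587.5 kb apart on chromosome 1, Rapgef3 and Ddx23 877.0 kb apart on chromosome 15, and Srp54a, Fam177a and Srp54b followed each other on chromosome 12 with gaps of 9.1 and 13 kb. In the stretch on chromosome 12 all 3 listed genes were members. The other listed genes within 500 kb of a member, 60 in number, were examined beside them. Of the 60, 1 (1.67%) passed in TrB, where 0.498% of all genes did, and 2 (3.33%) passed in eMZB, where 0.406% did. The median log2 difference of the 60 was 0.05 in TrB and 0.03 in eMZB.

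Endou, an endoribonuclease gene 13.4 kb from Rapgef3, was higher in TrB_KO, with 7.99, 8.48 and 9.5 scaled FPKM against 4.16, 4.18 and 4.64 in TrB_WT (log2 0.86, SE 0.12, adjusted p = 0.00407, limma). In eMZB_KO it had 1.07 ± 0.0459 and in eMZB_WT 0.766 ± 0.209, which did not pass (adjusted p = 0.971). Arf3, a GTPase gene of vesicle traffic 74.7 kb from Ddx23, was lower in eMZB_KO, with 8.60, 7.48 and 8.25 against 14.5, 15.6 and 14.3 in eMZB_WT (log2 -0.79, SE 0.14, adjusted p = 0.025). Ddx23 and Arf3 thus moved in opposite directions. Rnpep, an aminopeptidase gene between Ptprv and Csrp1, was lower in eMZB_KO, with 1.92, 2.48 and 3.23 against 4.98, 5.80 and 5.32 in eMZB_WT (log2 -0.86, SE 0.15, adjusted p = 0.0322). Endou passed in 17 of 19 alternative fits in TrB, Arf3 in 12 of 20 in eMZB and Rnpep in 11 of 19 in eMZB. In TrB, Arf3 had 8.60, 8.72 and 9.67 in TrB_KO against 14.2, 14.5 and 9.36 in TrB_WT, so that the library labelled TrB_WT replicate 3 lay among the knockouts. Without the 2 wild-type libraries of low Kdm1a, Arf3 also passed in TrB, at -0.62 (adjusted p = 0.0178; over its 20 alternative fits there, adjusted p ran from 0.009 to 0.956 and 2 passed). Rnpep without them did not pass in eMZB (adjusted p = 0.0669).

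**Figure D3:**
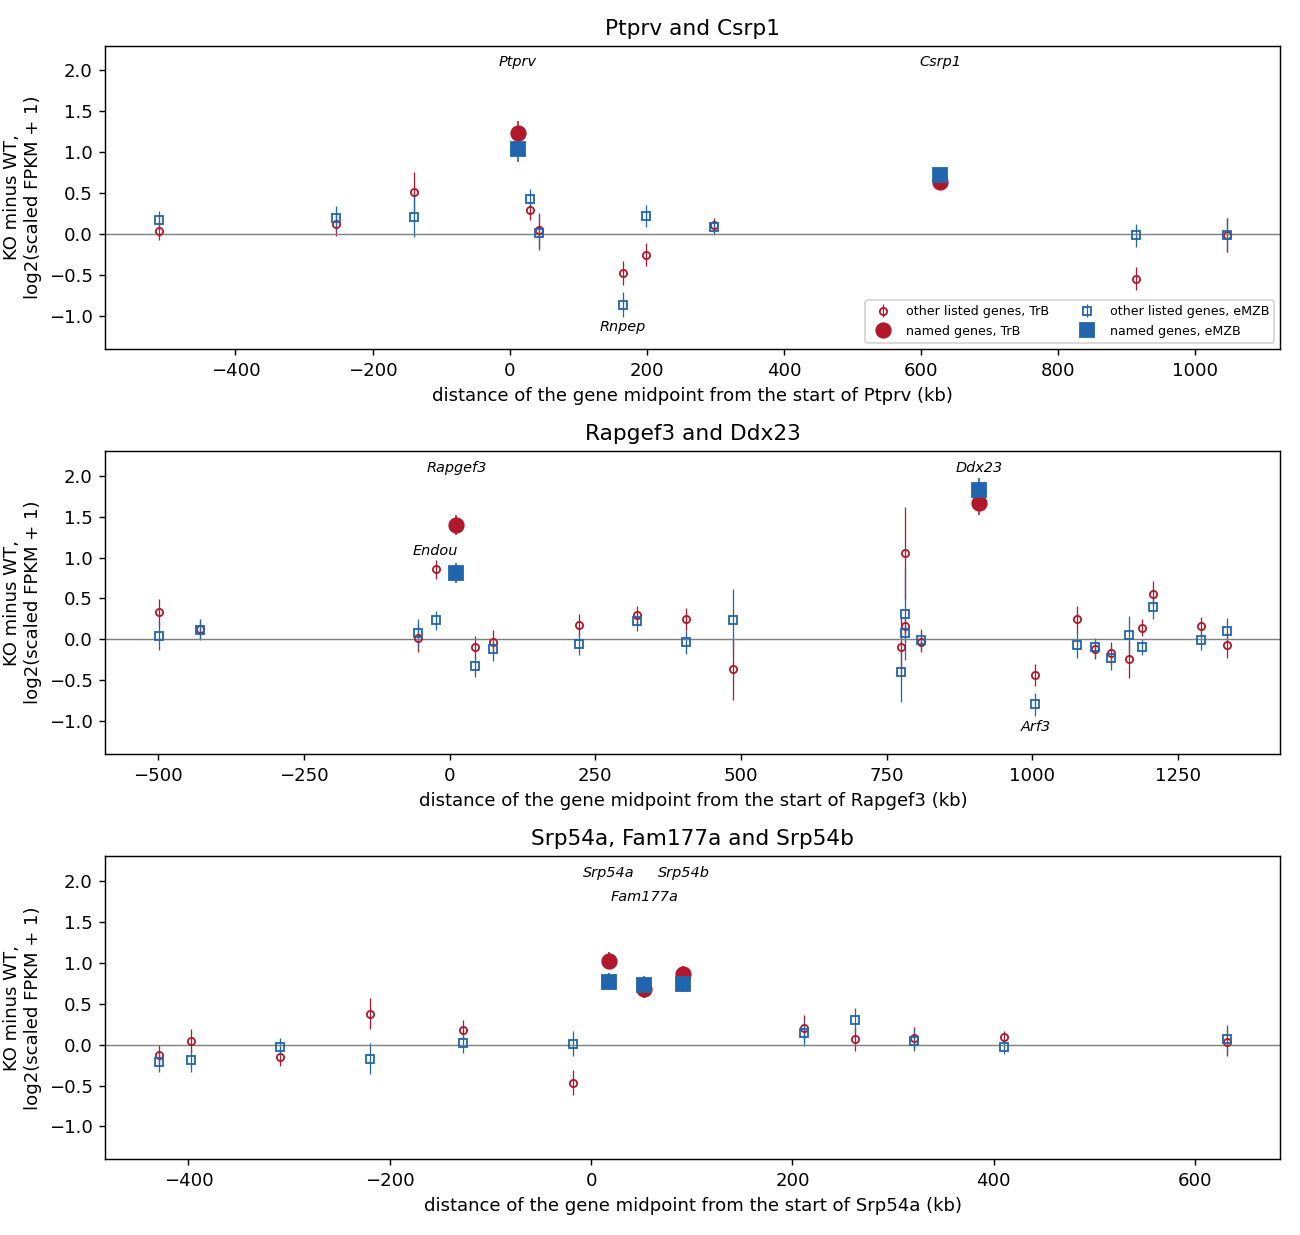
LSD1 knockout minus wild type on the log2(scaled FPKM + 1) scale, with SE, against distance in kb for the listed genes around 7 members in 3 stretches; filled symbols are the members, open symbols their neighbours, circles TrB and squares eMZB. The members stand between 0.64 and 1.83 and the median of all 60 neighbours is 0.05 in TrB and 0.03 in eMZB. The called neighbours are Endou, Arf3 and Rnpep.

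Other listed neighbours did not pass. Next to Srp54a, 2700097O09Rik ends 0.2 kb before it and had -0.47 in TrB (adjusted p = 0.304) and 0.01 in eMZB. Near Csrp1, Tmem9 had -0.54 in TrB (adjusted p = 0.181). Tuba1a, a tubulin gene near Ddx23, had 0.56 in TrB (adjusted p = 0.202) and 0.40 in eMZB (adjusted p = 0.741). Around Ide, Slc66a2 and St8sia6, which lie alone, 0 of 6, 0 of 6 and 0 of 4 neighbours passed in either cell type. Btaf1 near Ide had -0.35 and -0.29 in TrB and eMZB, Rbfa near Slc66a2 0.28 and -0.06, and Trdmt1 near St8sia6 -0.33 and -0.20.

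The position of the wild-type libraries of low Kdm1a is given for the 10 genes as a description. The genes were selected on a separation of knockout from wild type that included these libraries, so their positions were largely fixed by that choice and nothing is read from them. On a scale where 0% is the mean of wild-type replicates 1 and 2 and 100% the mean of the knockouts, TrB_WT replicate 3 stood at 85.4% for Kdm1a. For the members it stood between -23.7% (Ide) and 27.7% (Srp54a), with a median of 1.2%. eMZB_WT replicate 3 stood at 50.9% for Kdm1a and between -33.2% (Ptprv) and 26.8% (Rapgef3) for the members, with a median of 8.1%. Without both libraries, the log2 differences of the members moved by -0.08 to 0.10 in TrB and by -0.10 to 0.08 in eMZB. Then 9 of the 10 passed in TrB and 6 of the 10 in eMZB, on fewer libraries, where 54 and 23 of all 9842 genes did. The same comparisons chose the members, so nothing is read from these counts. With 1 such library per cell type this has no replicate check.

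Within the groups, the members did not vary together as a set. Over the 45 pairs, Pearson's r of deviations from the group means (12 libraries) had a median of 0.02 and ran from -0.63 to 0.90. Srp54a and Srp54b, whose coding sequences are identical, had 0.90, St8sia6 and Ide 0.81, and Ddx23 and Slc66a2 0.70. Ide and Srp54a had 0.60, and Ddx23 and Fam177a -0.63. All pairs share the libraries and their scaling, and with 3 libraries per group these values are descriptions. Fam177a lies between the 2 Srp54 genes and its r with them was -0.14 and 0.09.

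**Figure D4:**
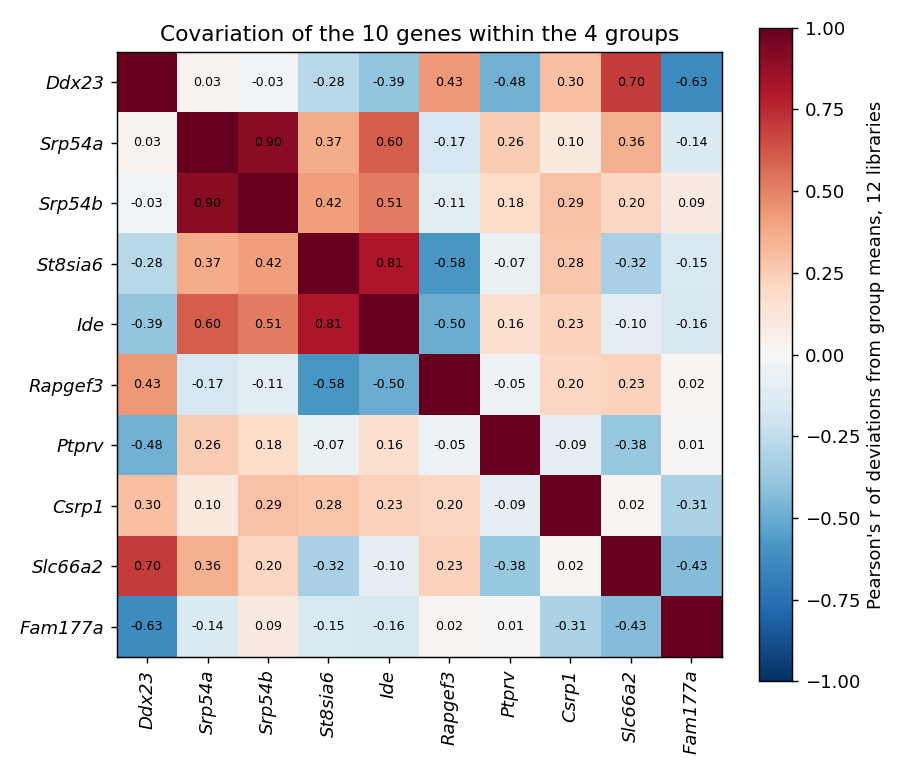
Pearson's r between the 10 genes of their deviations from the 4 group means over 12 libraries (colour from -1 to 1, value in each cell). The cell of Srp54a and Srp54b, at 0.90, is the highest, and the median of the 45 pairs is 0.02.

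The genes with levels most like each member's over all 12 libraries are given as a description. Members, and other genes called in both cell types, share the shift between genotypes on which the members were selected, so a high r among them follows from that choice. The highest Pearson's r with Srp54a was that of Srp54b (0.99), then Itgb7 (0.97) and Ly6c2 (0.96). Slc66a2 and Rapgef3 were each other's most similar gene (0.96), as were Ddx23 and Fam177a (0.95). For Csrp1 they were Ctse (0.96), Rapgef3 (0.94) and Cyp4f16 (0.93), and for Ptprv Srp54b (0.95), Srp54a (0.95) and Ly6c2 (0.94). For Ide and St8sia6, none of the 3 most similar genes was a member, and the highest r of St8sia6 with a member was 0.75, with Srp54a. Ide was closest to Mdh1 (0.96), D3Ertd751e (0.95) and Thop1 (0.95), and St8sia6 to Uck2 (0.97), Dut (0.97) and Gimap4 (0.97). These values mix the differences between groups with those within them.

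In all, 17 genes passed in both LSD1 comparisons, 34.7% of those called in TrB and 42.5% of those called in eMZB, and all 17 kept their direction. Besides the 10 members they were Ly6c2, Alox5ap, Ctse, Itgb7 and Eno1b, higher in both knockouts, and Ifi208 and Btg2, lower in both. Ctse, the protease cathepsin E, had log2 differences of 1.0 in TrB and 1.06 in eMZB, and the integrin chain Itgb7 1.12 and 0.92. Of the 17, 5 lie on chromosome 1, 4 on chromosome 15 and 3 on chromosome 12. The member nearest the threshold was Slc66a2, through its eMZB difference of 0.64. The genes just outside it were Myc, with 0.53 in TrB and 0.49 in eMZB, Erdr1, with 0.92 and 1.25, and Ube2l6, with 0.50 and 0.48.

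Among the 9 lists of genes related to the members by function, with 104 listed genes, 0 passed in TrB and 0 in eMZB by limma. At an unadjusted p under 0.05 there were 8 in TrB (7.69%, against 9.91% of all genes) and 4 in eMZB (3.85%, against 5.39% of all genes), and limma's voom on recovered reads called 0 and 0. Of the 12 listed genes of LSD1 and its complex partners, Kdm1a included, 0 passed in either cell type. The markers of the sorted cells were present, with 7 of 7 B cell, 5 of 5 transitional and 7 of 7 marginal zone markers listed. Of those 19, only Cr2, the gene of CD21, passed, with 13.3 ± 1.79 in TrB_KO and 8.77 ± 1.14 in TrB_WT (log2 0.55, adjusted p = 0.0469). Of neutrophil and NK cell markers 0 of 7 and 0 of 5 were listed, and of T cell, dendritic cell and erythroid or platelet markers 1 each. Of 8 macrophage and monocyte markers 4 were listed. Their summed level was 51.1 to 64.6 in TrB_KO against 12.4 to 14.2 in TrB_WT, and 50.6 to 58.4 in eMZB_KO against 13 to 23.0 in eMZB_WT. Without Ly6c2, which lymphocytes also express, it was 4.31 to 5.12 in TrB_KO against 5.05 to 6.55 in TrB_WT, and 4.25 to 5.45 in eMZB_KO against 2.48 to 3.36 in eMZB_WT. The sums without Ly6c2 overlapped between TrB_KO and TrB_WT and were higher in eMZB_KO than in eMZB_WT. Their part in the members' values was not tested. The dendritic cell marker listed, Flt3, had 0.402 to 0.469 in TrB_KO against 0.721 to 0.864 in TrB_WT. In eMZB_KO it had 4.52 to 5.67 against 0.675 to 1.06 in eMZB_WT, where it passed (log2 1.76). Of 6 plasma cell markers 5 were listed and 0 passed. Their sum was 47.7 to 97.6 in TrB_KO against 31.8 to 53.6 in TrB_WT, and 34.4 to 41.8 in eMZB_KO against 49.1 to 58.3 in eMZB_WT. Jchain, the joining chain of secreted antibody, had log2 differences of 1.97 in TrB (adjusted p = 0.502) and -1.76 in eMZB (adjusted p = 1.0).

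The other marker sums also differed in places. The B cell markers summed to 1892 to 2170 in TrB_KO against 2116 to 2453 in TrB_WT, and to 1181 to 1229 in eMZB_KO against 1279 to 1401 in eMZB_WT. The transitional markers summed to 392 to 423 in TrB_KO against 414 to 518 in TrB_WT, and to 160.4 to 165 in eMZB_KO against 138 to 145 in eMZB_WT. Both sums overlapped between genotypes in TrB and did not in eMZB. The marginal zone markers summed to 63.4 to 77.5 in TrB_KO against 63.0 to 68.2 in TrB_WT, and to 183.97 to 189.8 in eMZB_KO against 170.5 to 183.98 in eMZB_WT, with overlap in both. The T cell marker Lck had 6.06 to 7.19 in TrB_KO against 4.36 to 7.59 in TrB_WT, and 7.57 to 8.51 in eMZB_KO against 6.13 to 6.75 in eMZB_WT. The globin gene Hbb-bs had 0.920 to 1.93 in TrB_KO against 2.09 to 2.60 in TrB_WT, and 1.45 to 1.66 in eMZB_KO against 0.551 to 0.880 in eMZB_WT. The part of these marker levels in the members' values was not tested.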

How the data were processed

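Each library held RNA of 2000 sorted cells and was made with the SMART-Seq v4 and Nextera XT kits, per the labels' protocols, which keep no strand information. Per the submitters' processing notes, STAR and mm10 were used. For the counting program, its settings and the annotation, the sources used here give nothing. FPKM of 9842 genes in 12 libraries are what the authors deposited, and all 9842 genes reached 1 FPKM in at least 3 libraries. Whole reads were recovered from the FPKM within 0.02 reads for all listed genes, and gave totals of 7.24 to 19.35 M reads per library. Recovered gene lengths equalled the reference for 177 of 197 small genes. The reference lengths of these small genes also set the library totals, so this match is no independent check. The reads are PCR reads with no molecular identifiers. Replicates differed by 2.59 to 18.2 times the counting noise per gene, so none was a duplicate.

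FPKM were divided by median-of-ratios factors (0.613 to 2.14). limma (3.58.1 in R 4.3.3, eBayes with a trend) was fitted to log2(scaled FPKM + 1) of all 12 libraries with 4 group means and 8 residual degrees of freedom. A gene was called at a Benjamini-Hochberg adjusted p under 0.05 over all 9842 genes, and intervals are 95% intervals of that fit. Differences on this scale understate those of low genes. Alternatives were the deposited scale, upper-quartile scaling, a pseudocount of 0.1, a filter at a mean of 5 FPKM, the libraries of a comparison alone, a replicate block, voom on recovered reads, and leaving out each library or both wild-type libraries of low Kdm1a.

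The members and gene lists were chosen with earlier results of these data known. By rule the text could name all members, Kdm1a, called genes within 500 kb of a member and up to 3 more per locus, called genes of related lists and up to 2 more, the 3 genes most correlated with each member, and genes called in both LSD1 comparisons. Symbols, positions and promoters are RefSeq's for GRCm38.p6, the build of mm10, and transcripts are GENCODE M21. Of 9842 IDs, 9833 matched a symbol. The motifs were picked after results were seen. The labels number the replicates without saying what a number shares. Between TrB_KO and eMZB_KO, deviations of libraries with the same number correlated at 0.16, 0.11 and 0.29, which meets the level set for pairing (0.1 in every pair), from the data alone. The values printed come from the fit without a block, and the block is an alternative. In each other pair of groups at least 1 such correlation was under 0.1. Figures were drawn with matplotlib 3.10.9 in Python 3.11.15.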

Additional observations from a re-analysis of the deposited data

How the results depend on the processing

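No member reversed its LSD1 difference under any alternative. The deposited scale, which moved the median gene by 0.67 and 0.23, reversed 6 cell type differences. In eMZB_WT against TrB_WT these were Ddx23 (0.14), Slc66a2 (0.45), Csrp1 (0.14) and Fam177a (0.38), and in eMZB_KO against TrB_KO Ddx23 (0.075) and Fam177a (0.15). Genes called in TrB, 49 in the fit reported, numbered 19 on the deposited scale, 31 under the 5 FPKM filter, 9 with the groups alone and 21 by voom, and 26 to 54 without single libraries, the lowest without TrB_WT replicate 1. In eMZB, 40 became 15, 23 and 65 under the deposited scale, the filter and the groups alone, 23 without both wild-type libraries of low Kdm1a, and 16 to 52 without single libraries. Members called between cell types fell to 2 in each genotype on the deposited scale. The filter kept only Csrp1, Ide, Srp54a and Srp54b of the members, so the others were not tested there. Of those kept, 4 were called in wild type and 2, Csrp1 and Ide, in knockouts, as in the fit reported.

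Called neighbours in TrB were 0 on the deposited scale, with the filter and with the groups alone, 2 without both wild-type libraries, 2 within 1 Mb (a window chosen after seeing the data) and 1 to 2 without single libraries. In eMZB they were 0 on the deposited scale, 1 with the filter, 1 without both wild-type libraries, 3 with the groups alone, and 0 to 2 without single libraries: 0 without eMZB_KO replicate 1 or 2 or any eMZB_WT replicate. The filter removed Endou and Rnpep, whose means were under 5 FPKM, so they could not be called there. In the related lists with that of LSD1 partners, 1 gene was called without both wild-type libraries in each cell type and 1 in eMZB with the groups alone, and 0 to 1 without single libraries. Each time it was Kdm1a. Where wild-type libraries of low Kdm1a were left out, its call follows from the choice of those libraries. With the replicate block, neighbours called in eMZB were 0, genes called 39 in TrB and 27 in eMZB, and members called between cell types 6 in wild type and 5 in knockout, as without it. The causes were not tested. Depth limits Rapgef3, Ptprv, St8sia6 and Ddx23 most, with 16, 21, 28 and 29 reads in their shallowest library.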
